A study of Rattus norvegicus with 12 samples.

Results

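A set of 113 genes, of 32622 in the deposited table, stood high in fibro-adipogenic progenitors of rats unloaded for 7 days, both before and after adipogenic induction, while standing less than 2-fold above the control level before induction in cells of rats unloaded for 14 days. The genes were chosen by their counts per 1000000 counts of a library (CPM), averaged over the 2 libraries of a group, with 0.5 CPM added before any ratio was taken. A member had a ratio of 7-day to control cells of at least 2 at day 0 and at day 3, a ratio of 14-day to control cells under 2 at day 0, and a mean of at least 2 CPM in 7-day cells at both days. Of 10648 genes with that level in 7-day cells, 189 reached the ratio at day 0 and 167 at day 3. The ratio was reached at both days by 129, of which 16 were left out by the 14-day limit.

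The cells were primary cultures of Rattus norvegicus soleus, grown in medium with serum. Control cells came from rats without unloading, and the other cells came from rats after 7 or 14 days of hindlimb suspension, in which the hind legs carry no weight. Each was sampled at day 0, before induction, and at day 3 in medium with insulin, dexamethasone and 3-isobutyl-1-methylxanthine, which gives 6 groups of 2 libraries. The sources used here name no strain, sex or age, and do not say from how many rats or cultures the 2 libraries of a group derive. A p-value below is thus set against the scatter of these libraries, part or all of which may be technical. Libraries held 15105521 to 21484885 counts.

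Fibro-adipogenic progenitors are mesenchymal cells that lie between the fibres of skeletal muscle. They support the regeneration of muscle after injury, and in disuse or disease they can form fat cells or matrix-producing fibroblasts. The soleus is a postural muscle that loses mass when it is unloaded. Insulin, a glucocorticoid and a phosphodiesterase inhibitor are the usual triggers of fat cell formation in culture.

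The table names genes by Ensembl identifier alone, and the rat gene table used here matched 0 of those 32622 identifiers. No member is therefore named by symbol or function, the labelled cell type could not be checked against its markers, and the members are described by their levels, with 4 identifiers given singly. In bulk RNA, fewer cells that express a gene and less RNA of it per cell cannot be told apart.

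The choice of the genes fixes their main pattern, so the values of 7-day against control cells are descriptions without a test. The median member stood at 1.28 and 1.23 CPM in the control libraries at day 0, at 8.11 and 7.59 CPM in the 7-day libraries and at 1.24 and 1.16 CPM in the 14-day libraries. At day 3 it stood at 0.794 and 0.839 CPM in control, at 6.88 and 7.33 CPM in 7-day and at 1.01 and 1.00 CPM in 14-day libraries. The medians of the 4 libraries of 7-day cells were thus set apart from those of the other 8, and the medians of replicates lay close together. Single members varied more between replicates, as given below. Both 7-day libraries were above both control libraries for all 113 members at day 0 (32.9% of all tested genes were) and at day 3 (27.1%), a separation that the choice of the genes brings with it.

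**Figure D1:**
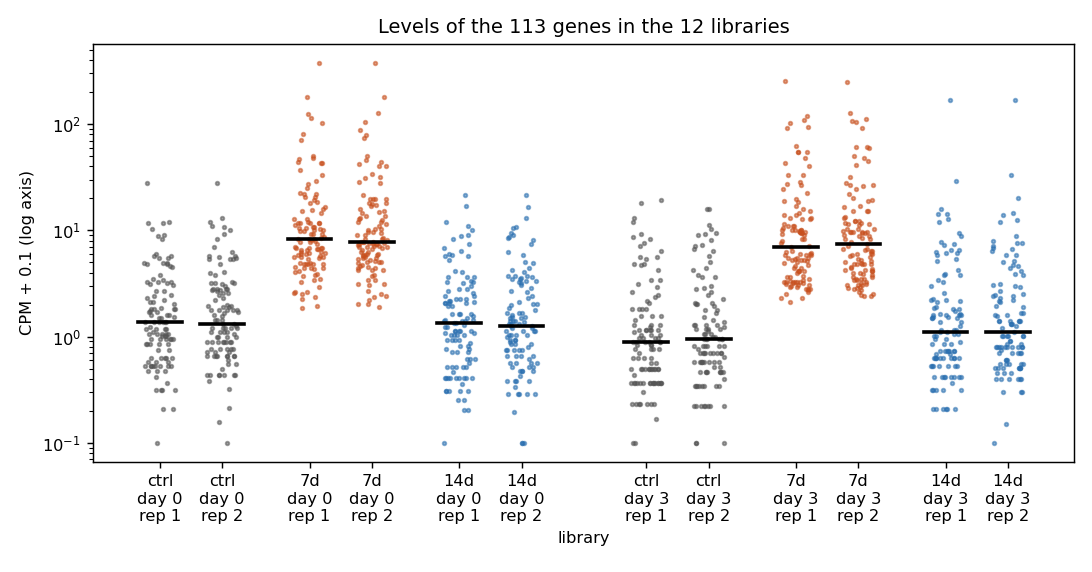
CPM of each of the 113 genes (points, 0.1 added, log axis) in the 12 libraries, with the median as a bar; day 0 is on the left and day 3 on the right. The 7-day libraries have medians of 6.88 to 8.11 CPM and the other libraries of 0.794 to 1.28 CPM.

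Together the members were a small part of the RNA. Their summed share was 0.0279% ± 0.000724 in control cells at day 0, 0.224% ± 0.00254 in 7-day cells and 0.0271% ± 0.000316 in 14-day cells (SD, n = 2). At day 3 the shares were 0.0222% ± 0.0000272, 0.199% ± 0.00290 and 0.0459% ± 0.00104. The 14-day share at day 3 rests in part on 1 gene: without ENSRNOG00000013973 it was 0.0291% ± 0.000988, against 0.0205% ± 0.000253 in control cells and 0.186% ± 0.00225 in 7-day cells.

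Outside the 7-day cells most members were near the low end of the genes that could be tested. The median member ranked at the 13.4th percentile of the 13215 tested genes in control cells at day 0 and at the 30.4th in 7-day cells, where the rule required a minimum level. Of the 113 members, 47 were under 1 CPM in control cells at day 0 and 72 at day 3. Summed over both libraries, the median member had 48 and 24 reads there and 245 and 267 in 7-day cells. Every member passed the filter on low counts and had reads in each group, the fewest being 2 in control cells at day 0. The sign and size of a change in control or 14-day cells were therefore less well determined than in 7-day cells. Replicates differed by an SD of 0.43 log2 units over members in control cells at day 0 and 0.47 at day 3, against 0.31 and 0.22 in 7-day cells, with 0.24 to 0.29 over all tested genes in the 6 groups.

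The members differed widely in size. At day 0 the ratio of 7-day to control cells ran from 2.02 to 15 with a median of 4.83, and at day 3 from 2.06 to 17.8 with a median of 5.75. It was under 4 in 38 members at day 0 and 29 at day 3, and at least 8 in 25 and 36. At both days it was at least 8 in 18 members. Since 0.5 CPM was added to both groups, these ratios understate the contrast of genes near 0 in control cells.

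The ratios of the 2 days resembled each other. In 74 members they were within 1.5-fold of each other, in 27 the day 3 ratio was at least 1.5 times the day 0 ratio, and in 12 the reverse held. Over the 113 members the log2 ratios correlated at r = 0.74 (Spearman rho 0.72). The days share no library, but both ratios were used to choose the members, and genes are not independent replicates.

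**Figure D2:**
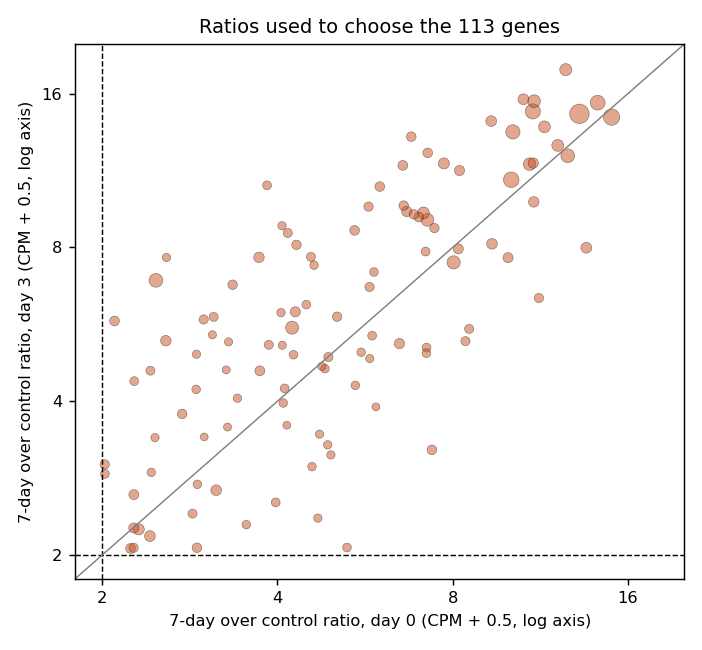
Ratio of 7-day to control cells at day 0 (x axis) and day 3 (y axis) for the 113 genes, on log axes with 0.5 CPM added; point area grows with the mean level in 7-day cells, dashed lines mark the limit of 2, and the grey line marks equal ratios. In 74 of the 113 genes the 2 ratios are within 1.5-fold of each other.

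The members with the highest level in 7-day cells were taken as a group. The 20 members with the highest mean CPM over the 4 libraries of 7-day cells held 65.7% ± 0.380 of the members' counts there at day 0 (SD, n = 2). Counts are not corrected for gene length, so this order is not an order of transcript numbers. These 20 had median ratios of 10.9 (day 0) and 11.9 (day 3), and the other 93 had 4.49 and 5.16. Of the 20, 17 had ratios within 1.5-fold of each other at the 2 days. The 20 were ranked by the level that is the numerator of these ratios, and the added 0.5 CPM damps a ratio less where levels are high, so both choices raise their ratios and the difference from the other 93 is only a description.

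The first of these 20 stood at 27.8 and 28.1 CPM in control libraries at day 0, at 375 and 376 CPM in 7-day libraries and at 21.6 and 21.3 CPM in 14-day libraries. At day 3 it stood at 17.9 and 15.8, at 254 and 252, and at 29.4 and 32.7 CPM. No 7-day library came near any library of the other treatments. The 10 members with the largest product of the ratios of both days, 9 of them among these 20, had ratios of 10.6 to 15 at day 0 and 12.1 to 17.8 at day 3.

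ENSRNOG00000018598 was the 1 gene of these 10 that rose from day 0 to day 3 in 7-day cells, where 24.8% of all tested genes rose. Its level was 80.6 and 78.4 CPM in 7-day libraries at day 0 and 103 and 104 CPM at day 3. In control libraries it was at 4.69 and 5.58 CPM at day 0 and at 5.56 and 7.01 CPM at day 3. In 14-day libraries it was at 3.10 and 2.79 CPM at day 0 and at 6.06 and 6.23 CPM at day 3, so that the 14-day libraries were below the control libraries at day 0 and among them at day 3. The rise was 0.41 log2 units (SE 0.09, adjusted p = 0.000152 by edgeR's quasi-likelihood test) in 7-day cells and 1.12 (SE 0.17, adjusted p = 5.40e-07) in 14-day cells, and in control cells the change was 0.29 (SE 0.16, adjusted p = 0.129).

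ENSRNOG00000030743 and ENSRNOG00000008536 were the first by that product among the 5 of the 10 that fell in 7-day cells, where 26.9% of all tested genes fell. The 10 were chosen by their 7-day ratios, and small changes pass the test more readily at high counts. How many of the 10 rose or fell is therefore only a description. ENSRNOG00000030743 was at 48.3 and 42.2 CPM in 7-day libraries at day 0 and at 22.5 and 21.7 CPM at day 3, a change of -1.0 log2 units (SE 0.14, adjusted p = 2.68e-07 by edgeR's test). It was at 3.31 and 3.01 CPM in control libraries at day 0 and at 1.06 and 0.479 CPM at day 3, a change of -2.06 (SE 0.32, adjusted p = 1.18e-06). The gene fell in both treatments. In 14-day libraries it was at 1.96 and 1.30 CPM at day 0 and at 1.70 and 2.41 CPM at day 3, where the values of the 2 days overlap and the change did not pass the test (0.41, SE 0.28, adjusted p = 0.218).

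ENSRNOG00000008536, the second by level, was at 182 and 180 CPM in 7-day libraries at day 0 and at 109 and 108 CPM at day 3. The fall of 0.71 log2 units (SE 0.08, adjusted p = 1.11e-09 by edgeR's test) stood beside one of 0.72 (SE 0.14, adjusted p = 2.69e-05) in control cells, from 10.2 and 13.0 to 6.95 and 7.19 CPM. In 14-day cells it rose from 8.77 and 10.7 CPM to 11.8 and 12.5 CPM (log2 change 0.37, SE 0.12, adjusted p = 0.00915). That rise did not pass the test without the first 14-day library at day 0 (adjusted p = 0.152) or without the second at day 3 (adjusted p = 0.0648).

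**Figure D3:**
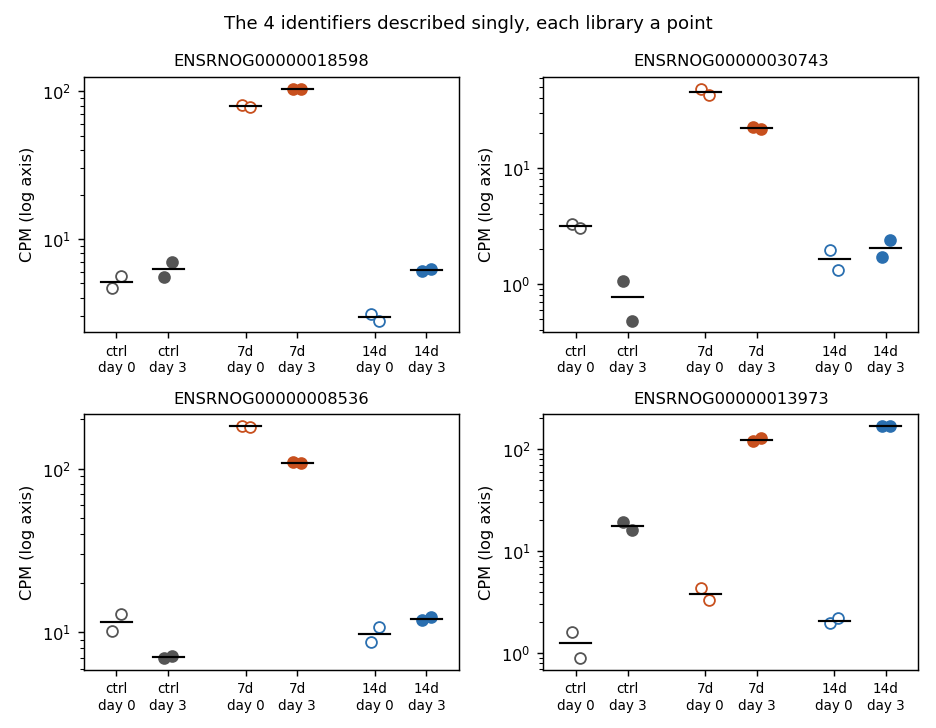
CPM of the 4 genes given by identifier in each library (points; open at day 0, filled at day 3; log axis), with the mean of the 2 libraries as a bar. In 3 panels the 7-day libraries lie above all others; ENSRNOG00000013973 is at 168 CPM in the 14-day libraries at day 3, above the 7-day libraries.

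The 14-day libraries at day 3 were the 1 group that the rule did not use. Compared with control cells at day 3, 31 of the 113 members were higher, which is 27.4% of them where 16.0% of all tested genes were higher, and 0 were lower, where 15.3% of tested genes were (edgeR's quasi-likelihood test at an FDR of 0.05; 0 were lower at an unadjusted p under 0.05 and 0 by DESeq2, and 1 with scaling to the total count). The median log2 difference was 0.59 over the members and 0.02 over all tested genes. The control libraries of day 3 entered the rule, which favours genes that are low in them, so these counts are not independent of the choice. In a fit of these 4 libraries alone, 78 of the 113 members passed the filter on low counts and 25 of the 31 calls were kept. The rest of the members passed the filter only with the other libraries, the 7-day libraries among them, and at so few reads a lower level could hardly be detected. Leaving out the second of the 14-day libraries of day 3 gave 20 higher members. By separation of libraries, both 14-day libraries were above both control libraries in 51 members (24.4% of tested genes were) and below both in 10 (41.7%). At day 0, a contrast the rule did use, they were above in 22 (22.4%) and below in 34 (33.5%).

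At least 2-fold differences, by the fit, were found in 19 of the 31 (1.84% of tested genes were that much higher and 2.90% that much lower), and the log2 differences of the 31 ran from 0.56 to 3.37 with a median of 1.22. Of the 20 members with the highest level in 7-day cells 15 were higher, and of the other 93 there were 16. The reads differ as well, however: the median over both 14-day libraries at day 3 was 255 in the 20 and 30 in the 93. The 7-day level of day 3 is high by the rule, so the following values only describe the 31. The ratio of 7-day to 14-day cells at day 3 was at least 2 in 24 of them, with a median of 5.23.

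**Figure D4:**
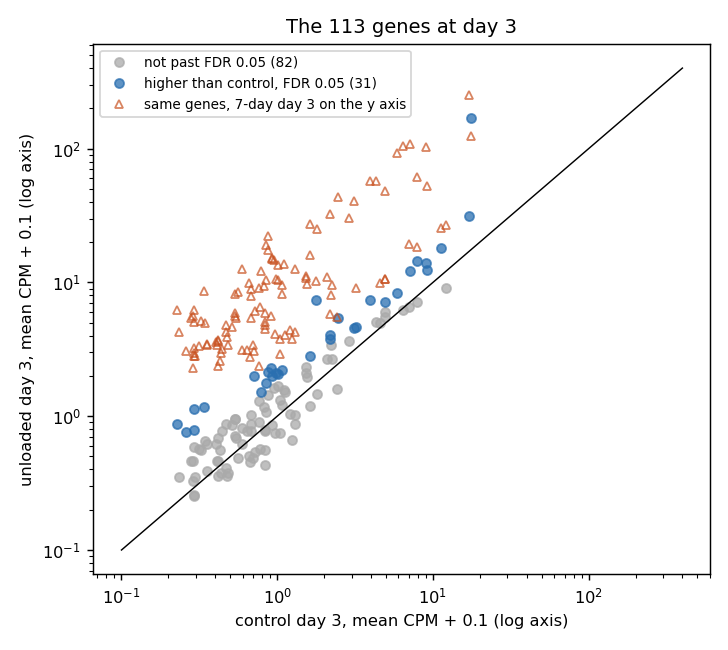
Mean CPM at day 3 of the 113 genes in control cells (x axis) and in unloaded cells (y axis), 0.1 added, log axes; circles show 14-day cells, blue for the 31 genes higher than control, and triangles show 7-day cells. Of the circles, 85 are within 1.5-fold of equal level with 0.5 CPM added and 9 are at least 2-fold above it, ENSRNOG00000013973 by the most, and triangles lie above it by the choice of the genes.

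At day 0 the rule required a ratio of 14-day to control cells under 2, and set no limit between 7-day and 14-day cells. The ratio of 14-day to control cells there was within 1.5-fold of 1 in 94 members and at least 1.5 in 9. That of 7-day to 14-day cells ran from 1.23 to 23.2 and was at least 2 in 105, so not every member was high after 7 days alone. At day 3 the rule set no limit on 14-day cells, and some members stood at least 2-fold above control. With 0.5 CPM added, the ratio of 14-day to control cells at day 3 had a median of 1.24 and was within 1.5-fold of 1 in 85 members and at least 2 in 9 (0.931% of tested genes). Both 7-day libraries were above both 14-day libraries in 113 members at day 0 (38.8% of tested genes were) and in 112 at day 3 (41.3%), counts that again follow from the choice of genes high in 7-day cells. They were below both in 1 at day 3 (19.2%).

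That 1 member was ENSRNOG00000013973, taken up here after its values were seen. It was at 1.6 and 0.892 CPM in control libraries at day 0, at 4.31 and 3.34 CPM in 7-day libraries and at 1.96 and 2.19 CPM in 14-day libraries. At day 3 these became 19.1 and 15.9, 119 and 129, and 168 and 168 CPM. The gene rose in each treatment, by 3.78 log2 units (SE 0.18) in control, 5.04 (SE 0.12) in 7-day and 6.39 (SE 0.13) in 14-day cells, with adjusted p of 9.89e-20, 1.04e-28 and 1.19e-31 by edgeR's test. At day 3 both unloaded treatments stood above control cells, and the 14-day libraries above the 7-day libraries.

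The rule sets no condition on the change from day 0 to day 3 itself, but every group in it other than the 14-day cells of day 3 was used by the rule. In control cells the limits on the 7-day ratios favour low levels at both days, and the 14-day limit favours a high level at day 0, so that a fall in control cells is favoured in part by the choice. In 14-day cells that limit favours a low level at day 0 and with it a rise. The shares of members below are therefore descriptions, and their distance from the background is not independent of the rule. No cells were kept to day 3 without induction, so that induction and time in culture cannot be told apart. In control cells 39 of the 113 members fell, 34.5% of them against 26.8% of all tested genes, and 9 rose, 7.96% against 25.8% (edgeR's quasi-likelihood test, FDR 0.05). The median change was -0.56 log2 units over the members and 0.00 over all tested genes, and 30 of the 39 fell at least 2-fold (10.1% of tested genes did). Of the 9 that rose, 6 did so at least 2-fold (6.97%).

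In 7-day cells 28 members fell, 24.8% of them against 26.9% of all tested genes, and 14 rose, 12.4% against 24.8%. The share that fell was near the background. The median change was -0.12 over the members and -0.01 over all tested genes, and 71 members did not pass the test. At least 2-fold, 16 fell (9.32% of tested genes) and 7 rose (6.52%). Leaving out the first of the 7-day libraries of day 3 gave 17 that fell and 27 changed in all.

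In 14-day cells 24 members rose, 21.2% of them against 27.7% of all tested genes, and 21 fell, 18.6% against 28.1%. At least 2-fold, 12 rose (7.98% of tested genes) and 18 fell (10.2%). The median change was 0.13 over the members and 0.01 over all tested genes. That median was 0.08 with scaling to the total count, and leaving out 1 library gave 0.07 (the first of day 0), 0.28 (the first of day 3) and -0.026 (the second of day 3), so its sign was not settled. Of the 20 members with the highest level in 7-day cells 10 rose and 0 fell, and of the other 93, 14 rose and 21 fell. The 20 were not ranked by their reads in 14-day cells, but the reads differ as well. The median over both 14-day libraries at day 3 was 255 in the 20 and 30 in the 93.

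**Figure D5:**
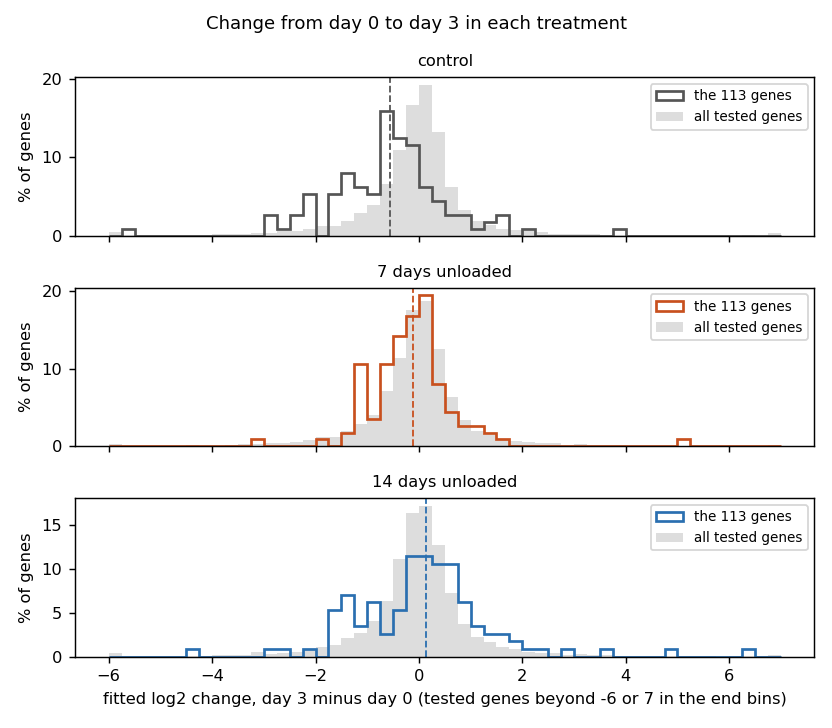
Fitted log2 change from day 0 to day 3 (x axis, bins of 0.25) as a percentage of genes (y axis) for the 113 genes (outline) and all 13215 tested genes (grey) in control, 7-day and 14-day cells; the dashed line is the median of the 113. The medians are -0.56, -0.12 and 0.13.

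Few members changed alike in all 3 treatments. With induction 5 members rose in all 3 (4.42%, against 15.1% of tested genes) and 8 fell in all 3 (7.08%, against 17.4%), while 32 passed the test in none (28.3%, against 25.9%). The most frequent pattern after that was a fall called in control cells alone, in 14 members, followed by a rise called in 14-day cells alone, in 9. The rule favours both patterns, and no share of tested genes was taken for them. A change not called in a treatment may have been missed at few reads. Whether the change differs between treatments needs a test of its own, given below for 14-day cells.

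The 5 members that rose in all 3 treatments had median levels of 2.0 CPM in control, 5.17 in 7-day and 2.07 in 14-day cells at day 0, and of 7.76, 18.3 and 7.32 CPM at day 3. Besides ENSRNOG00000013973, 1 of them went from 0.310 and 0.233 CPM in 14-day libraries at day 0 to 7.66 and 6.98 CPM at day 3, where 7-day libraries were at 9.96 and 10.2 CPM and control libraries at 0.993 and 2.34 CPM. At day 3 the 14-day libraries of this gene lay between those of control and 7-day cells and nearer to the latter.

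The 8 members that fell in all 3 treatments had median levels of 4.71 CPM in control, 10.9 in 7-day and 3.99 in 14-day cells at day 0, and of 0.625, 4.0 and 0.991 CPM at day 3. The deepest fall was that of a gene at 11.7 and 10.9 CPM in control libraries at day 0 and at 0.132 and 0.300 CPM at day 3. It went from 28.9 and 30.9 CPM to 3.36 and 3.17 CPM in 7-day libraries and from 9.96 and 9.31 CPM to 0.638 and 0.301 CPM in 14-day libraries. In each treatment its day 3 libraries were far below its day 0 libraries, and the 7-day libraries were the highest at both days.

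A further 3 members fell in control and 7-day cells and rose in 14-day cells. They were the 3 with the highest level in 7-day cells, ENSRNOG00000008536 among them. Their changes were -0.75 to -0.42 log2 units in control cells, -0.71 to -0.26 in 7-day cells and 0.37 to 0.59 in 14-day cells. Changes this small pass the test more readily at high counts, and no share of tested genes was taken for the pattern. As given above, the rise of ENSRNOG00000008536 did not pass the test when certain single 14-day libraries were left out. In 14-day cells they stood at 9.74 to 21.5 CPM at day 0 and 12.1 to 31.0 CPM at day 3, and in 7-day cells at 125 to 375 CPM and 102 to 253 CPM.

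The difference between the change of 14-day cells and that of control cells was tested as an interaction. It was more positive in 14-day cells for 25 members, 22.1% of them against 11.0% of all tested genes, and more negative for 1, 0.885% against 10.9% (edgeR's quasi-likelihood test, FDR 0.05). The median difference was 0.70 log2 units over the members and 0.03 over all tested genes. A difference of at least 2-fold was more positive in 20 (2.46% of tested genes) and more negative in 1 (2.60%). The negative count was 2 when the first control library of day 0 was left out. Of the 31 members higher than control in 14-day cells at day 3, 15 had risen in 14-day cells and 3 had fallen there. In control cells 16 of the 31 had fallen and 3 had risen. Being called higher at day 3 itself favours such a rise or fall, and no share of tested genes was taken, so these counts are only descriptions. Against the change of 7-day cells, that of 14-day cells was more positive for 14 members, 12.4% against 4.14% of tested genes, and more negative for 3, 2.65% against 4.44%. At least 2-fold, it was more positive in 10 (0.931%) and more negative in 3 (0.522%). The median difference was 0.29. It became 0.10 when the second of the 14-day libraries of day 3 was left out and 0.12 when the second of the 7-day libraries of day 0 was. The negative count became 5 when the first of the 14-day libraries of day 3 was left out. The rule favours more positive values in both interactions: it caps 14-day cells relative to control cells at day 0, and it takes genes low in control cells at day 3 and high in 7-day cells at day 0. The excess of positive over negative differences is therefore no independent result, and nothing is read from it. Both interactions were added after the data were seen, and they share the 14-day libraries with each other and with the comparisons above.

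The limits of the rule cut through a continuous range. At day 3 the 3 members nearest above the limit had ratios of 2.06, 2.07 and 2.07 of 7-day to control cells, and the 3 genes nearest below it that met every other condition had 1.97, 1.95 and 1.94. The former stood at 10.5, 10.6 and 9.80 CPM in 7-day cells at day 3 and the latter at 9.65, 4.44 and 12.8 CPM. At the 14-day limit of day 0 the members nearest below stood at ratios of 1.98, 1.89 and 1.83, and the nearest genes left out at 2.06, 2.09 and 2.12.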

How the data were processed

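Poly(A) RNA of 12 libraries was made into strand-marked libraries, per the labels' protocols. The deposited values are whole-number counts, not normalized, in 1 column per library for 32622 rat genes with Ensembl identifiers. The submitters' processing notes list FastQC 0.11.9, STAR 2.7, featureCounts 1.6.4, DESeq2 and Rnor_6.0. How each was set, the annotation used and the use of strand in counting are not stated there, so antisense or overlapping genes and near-identical copies may share reads. Among counts from 1 to 20, 68.3% to 70.6% were even in each library, and where mates of 1 fragment were counted singly, the sampling error is greater than the count implies. Levels are CPM, the count divided by the column sum and multiplied by 1000000. Tests used edgeR 4.0.16 in R 4.3.3: filterByExpr, TMM, and glmQLFit and glmQLFTest on 1 fit of 6 group means to all 12 libraries (6 residual degrees of freedom), two-sided, with Benjamini-Hochberg adjustment over the 13215 genes tested. The fit was tested on simulated data. DESeq2 1.42.0 was an alternative, as were other scalings, filters, halved counts, a replicate block and leaving out libraries.

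Members, lists and tests were chosen with earlier results of these data known. 30 lists of gene symbols, cell type markers included, could not be used, as no identifier matched a symbol. The naming rule then gave, of the 10 members with the largest product of both 7-day ratios, up to 2 that rose and 2 that fell in 7-day cells; 1 had risen, and ENSRNOG00000013973 was added after its values were seen. The 20 members with the highest level came from the same rule.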

Additional observations from a re-analysis of the deposited data

Results flagged for a closer look

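The values here are listed because the change from day 0 to day 3 differed between treatments by the interaction test of edgeR (quasi-likelihood, Benjamini-Hochberg adjusted). All groups but the 14-day cells of day 3 entered the choice of the genes, which favours more positive differences. Neither the direction nor the adjusted p-values are therefore independent evidence. Of the genes named below, ENSRNOG00000013973 was added after its values were seen, and the others were chosen by the product of both 7-day ratios. Against control cells the change of 14-day cells was more positive in 25 members (22.1%, against 11.0% of all tested genes) and more negative in 1 (0.885%, against 10.9%). Against 7-day cells it was more positive in 14 (12.4%, against 4.14%) and more negative in 3 (2.65%, against 4.44%). As said above, nothing is read from this excess. ENSRNOG00000018598 differed by 0.83 log2 units from control (SE 0.23, adjusted p = 0.00805) and by 0.71 from 7-day cells (SE 0.19, adjusted p = 0.0137). ENSRNOG00000030743 differed by 2.47 (SE 0.43, adjusted p = 3.37e-05) and 1.41 (SE 0.31, adjusted p = 0.00233). ENSRNOG00000008536 differed by 1.09 (SE 0.18, adjusted p = 1.64e-05) and 1.08 (SE 0.14, adjusted p = 1.20e-06). ENSRNOG00000013973 differed by 2.61 (SE 0.32, adjusted p = 6.74e-08) and 1.35 (SE 0.23, adjusted p = 9.54e-05).

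The difference of ENSRNOG00000018598 from control did not pass the threshold without the second control library at day 0 (adjusted p = 0.0555), the first control library at day 3 (0.0565) or the second 14-day library at day 0 (0.0520). Its difference from 7-day cells did not pass without the second 14-day library at day 0 (adjusted p = 0.11) or at day 3 (0.0547). The difference of ENSRNOG00000030743 from 7-day cells did not pass without the second 14-day library at day 3 (adjusted p = 0.0727).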

How the results depend on the processing

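The number of members was 65 with a minimum of 5 CPM in place of 2, and 83 to 114 under the other changes of the rule, and leaving out 1 library at a time gave 110 to 119. Scaling to the total count moved the median tested gene by -0.10 log2 units in the comparison of 14-day with control cells at day 3, and gave 1 lower member where TMM gave 0. Leaving out 1 library gave 20 to 27 higher members there and 0 lower. For 7-day cells it gave 27 to 38 members changed with induction, 17 to 25 of them lower. The median change of 14-day cells then ran from -0.026 to 0.28, from the second to the first library of day 3 being left out. For the difference of the 14-day from the control change leaving out 1 library gave 1 to 2 more negative members and from the 7-day change 2 to 5. Where it leaves 1 library in a group, that library is assumed to vary like the others. The other counts of called members stayed within 1.5 times of their value under DESeq2, both other scalings and filters, halved counts and fits of the groups compared alone, which tested 78 to 113 of the members. No pairing of samples by replicate number was seen: the replicate differences of 2 groups correlated at -0.05 to 0.04 over genes. Whether libraries of the same number share a rat or culture is not known. With a replicate block 29 members were called at day 3 between 14-day and control cells, against 31, and no other count of calls moved by over 1.5 times. Members with few reads outside 7-day cells limit what the depth can show. The causes were not tested.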

Other observations

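The 16 genes left out by the 14-day limit had a median ratio of 7-day to control cells of 3.16 at day 0 (2.02 to 8.11) and 3.05 at day 3 (2.11 to 6.07). Their median ratio of 14-day to control cells was 2.41 at day 0, where the limit chose it, and 2.21 at day 3 (0.805 to 6.97). These are values with no test.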
